A study of Homo sapiens with 24 samples.

Results

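The effect of Siomycin A on PC3 cells after 48 h was measured on 3 Illumina bead arrays of treated cells and 3 arrays of cells given the solvent DMSO for the same time, which are 6 of the 24 arrays of the study. Every gene that could be tested was taken, 13344 in all, each read from its brightest probe on average over the series. PC3 is an established human prostate cancer line, grown from a bone metastasis, that lacks functional p53 and grows without androgen signalling. The 3 arrays of treated cells are called Siomycin 48 h and the 3 control arrays DMSO 48 h. For comparison, 3 arrays each of PC3 Siomycin 24 h, PC3 DMSO 24 h, LNCaP Siomycin 48 h and LNCaP DMSO 48 h were used, where LNCaP is a second prostate cancer line with an active androgen receptor. All cultures were plated in 6-well plates the day before, without any genetic change, in serum-containing medium of a different kind for each line. The treatment protocol gives the Siomycin dose as 0.5 microM and the sample titles as 5 microM. The sample descriptions and intensity column headers read 05mikroM, without a decimal point, so the dose is not settled. The labels do not state whether the 3 replicates came from separate cultures. The p-values therefore cover only array-to-array spread within a group, and part or all of that spread may be technical.

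Siomycin A is a thiopeptide antibiotic of Streptomyces. In human cancer cells it is known to inhibit the proteasome, and it is used as an inhibitor of FOXM1, the transcription factor that drives the genes of mitosis, and of MELK, a kinase of dividing cells. Cells with an impaired proteasome are known to respond through the transcription factor NRF1, which raises new proteasome subunits, through NRF2, which raises antioxidant enzymes, and through the integrated stress response, in which ATF4 and CHOP raise genes of amino acid supply and cell death. The results begin with the genes that changed most and go on through these groups.

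Array quality was largely even. Per array, 17010 to 20101 of the 47318 probes exceeded background, and every one of the 24 arrays was most like a replicate of the same condition. The lowest r between replicates was 0.9814, in LNCaP Siomycin 24 h, and within Siomycin 48 h it was 0.9874. Siomycin 48 h had 17668 ± 578 probes above background and DMSO 48 h had 18975 ± 69.5 (SD, n = 3 each). Replicate 3 of Siomycin 48 h was the dimmest array of the series, with a mean intensity of 314.4, and replicate 1 of DMSO 48 h came next, with 378. All 10 PC3 marker genes lay above background on all 6 arrays. Of 8 measured LNCaP markers, KLK2, ACP3 and FOLH1 were above background on none, and SLC45A3, STEAP2 and HOXB13 were above it on all 3 Siomycin arrays. Summed over all 8, their intensity over background was 262 to 488 in Siomycin 48 h and 869 to 1224 in DMSO 48 h. HOXB13, a prostate homeobox factor, fell by 2.27 ± 0.11 (SE, log2). Markers of blood cells summed to 2 to 43 in Siomycin 48 h and 6 to 28 in DMSO 48 h, with 3 of 6 (PTPRC, CD3E and HBA1) above background on none of the arrays and 1 called higher. Markers of fibroblasts and endothelium summed to -49 to -10 in Siomycin 48 h and -19 to 4 in DMSO 48 h, with 5 of 9 above background on none, 1 above it on all 3 DMSO arrays and 1 called lower. Their part in the results was not tested.

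At 48 h 6105 of 13344 genes differed between Siomycin and DMSO, 45.8% of those tested (limma, Benjamini-Hochberg adjusted p under 0.05). Of these, 2598 were higher in Siomycin (19.5%) and 3507 were lower (26.3%). At least 2-fold rises were called for 436 genes (3.27%) and at least 2-fold falls for 824 (6.18%), and 51 rises and 93 falls reached 4-fold. The median called rise was 0.59 and the median called fall -0.66 on the log2 scale, and 2726 of the calls were smaller than 1.5-fold. The median of all genes was -0.04. Fold changes below are log2 values of Siomycin over DMSO with limma's standard error, and "called" means an adjusted p under 0.05 in limma across all genes. In RNA from whole cultures, a loss of cells that hold a transcript and a lower amount per cell cannot be told apart.

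The split between higher and lower genes depended on the scaling. When each array was centred on its median, in place of quantile normalization, the median of all genes moved to -0.21 and the split became 844 higher and 4509 lower. Counts under this median centring are given below, in the order of the counts they follow, where one of them differs by more than 1.5 times. A further limit came from the control arrays. The PC3 DMSO cultures themselves differed between the times, with 1922 genes higher at 48 h than at 24 h (14.4%) and 1852 lower (13.9%). That comparison shares the DMSO 48 h arrays with the comparison of interest, so its values are set beside the others as measurements, and the gene lists were also counted for Siomycin 48 h against the DMSO 24 h arrays, and those counts are given by the same rule. A list's counts are to be read against the 19.5% of all genes called higher and the 26.3% called lower.

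**Figure D1:**
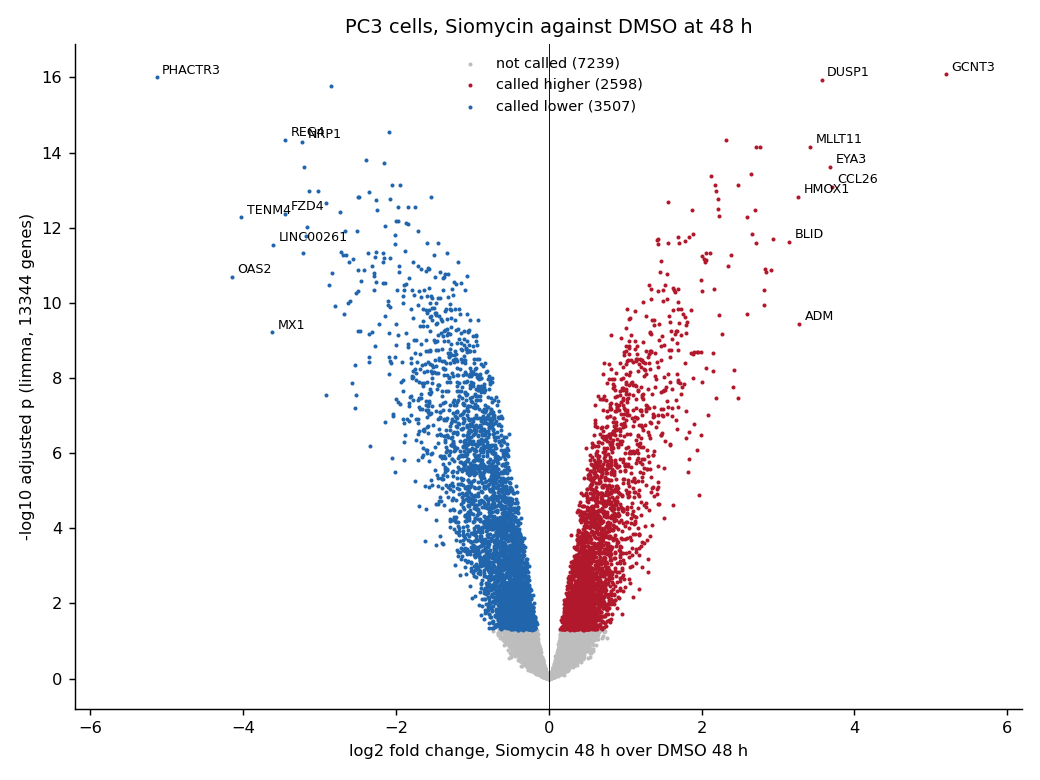
Log2 fold change of Siomycin 48 h over DMSO 48 h (x axis) against -log10 of the limma adjusted p (y axis) for 13344 genes in PC3 cells, with 2598 genes called higher in red, 3507 called lower in blue and the rest in grey. GCNT3 and PHACTR3 stand at the ends, and the fitted GCNT3 value of 5.20 rests on DMSO arrays below background.

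The strongest rises joined a glycosyltransferase, signalling feedback genes and stress genes. GCNT3, the core 2 and core 4 enzyme of mucin-type glycans, had log2 intensities of 9.68, 9.69 and 9.68 in Siomycin 48 h and of 4.46, 4.49 and 4.51 in DMSO 48 h. The DMSO arrays were all below background for it, so its rise was at least 31.5-fold (adjusted p = 8.23e-17). DUSP1, the phosphatase that switches off MAP kinases, had 12.16, 12.08 and 12.22 in Siomycin 48 h and 8.49, 8.59 and 8.66 in DMSO 48 h, a rise of 3.57 ± 0.09 (adjusted p = 1.16e-16). The groups lay far apart for both genes, and the replicates lay close together. HMOX1, which degrades heme, had 10.14, 10.14 and 10.18 in Siomycin 48 h and 6.56, 7.15 and 6.94 in DMSO 48 h (3.27 ± 0.13). ADM, the vasodilator peptide adrenomedullin, had 12.17, 12.13 and 12.05 against 8.92, 8.70 and 8.90 in DMSO 48 h (3.28 ± 0.22). Neither gene's groups overlapped. Most genes named here and below were chosen by the size of their called change, so groups without overlap follow from that choice.

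The other 11 of the 15 largest rises ran from 3.71 to 2.76. They were CCL26, an eosinophil chemokine (3.71 ± 0.14), EYA3, a phosphatase and coactivator (3.69 ± 0.13), MLLT11, a leukaemia fusion partner (3.42 ± 0.11), BLID (3.14 ± 0.15), and RHOB, a small GTPase of endosomes and stress (2.94 ± 0.14). Next came JMY, a p300 cofactor and actin nucleator (2.90 ± 0.16), GPRC5A, an orphan receptor (2.84 ± 0.16), ZFP36, which destabilises AU-rich mRNAs (2.83 ± 0.15), RNVU1-7, a U1 small nuclear RNA (2.82 ± 0.18), the kinase PIM1 (2.81 ± 0.17) and GABARAPL1 of the autophagosome membrane (2.76 ± 0.09). EYA3, BLID, RHOB and JMY were above background on only 2 of the 3 DMSO arrays. The JMY rise rests on 1 of its 2 probes, since the probe detected on all 24 arrays gave 0.09 ± 0.16 (adjusted p = 0.648).

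The deepest falls took in cytoskeletal, secreted, receptor and antiviral genes. PHACTR3, which binds actin and protein phosphatase 1, had 6.92, 6.80 and 6.54 in Siomycin 48 h and 11.92, 11.81 and 11.93 in DMSO 48 h, a fall of 5.13 ± 0.12 (adjusted p = 1e-16). REG4, a lectin of goblet and neuroendocrine cells, had 4.80, 5.19 and 4.72 in Siomycin 48 h, above background on 1 array only, and 8.35, 8.26 and 8.46 in DMSO 48 h (-3.45 ± 0.11). Again every treated array lay below every control array. TENM4, a teneurin of neuronal contacts, and HSD17B2, which oxidises estradiol and testosterone, were below background on all 3 Siomycin arrays and were at least 14.9-fold (adjusted p = 5.28e-13) and at least 7.05-fold lower (adjusted p = 1.02e-13).

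FZD4, a Wnt and norrin receptor, fell by 3.45 ± 0.15, and SHISA3, an inhibitor of Wnt and FGF receptors, fell by 3.18 ± 0.15. The tendon homeobox factor MKX fell by 3.22 ± 0.16. The phosphatase CTDSP1 fell by 3.21 ± 0.11, NNMT, which methylates nicotinamide, fell by 3.16 ± 0.14, PRRT3 fell by 3.14 ± 0.12 and the long noncoding RNA LINC00261 fell by 3.61 ± 0.18, above background on 1 Siomycin array. NRP1, a receptor for semaphorins and VEGF, fell by 3.22 ± 0.10 on the probe that was brighter over the 24 arrays, with 9.40 in Siomycin 48 h against 12.63 in DMSO 48 h. Its other probe went the other way, with 12.22 in Siomycin 48 h against 11.43 in DMSO 48 h. MKX was higher by 2.86 in DMSO 48 h than in DMSO 24 h, and set against DMSO 24 h its difference was -0.35 ± 0.16 (adjusted p = 0.0822).

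**Figure D2:**
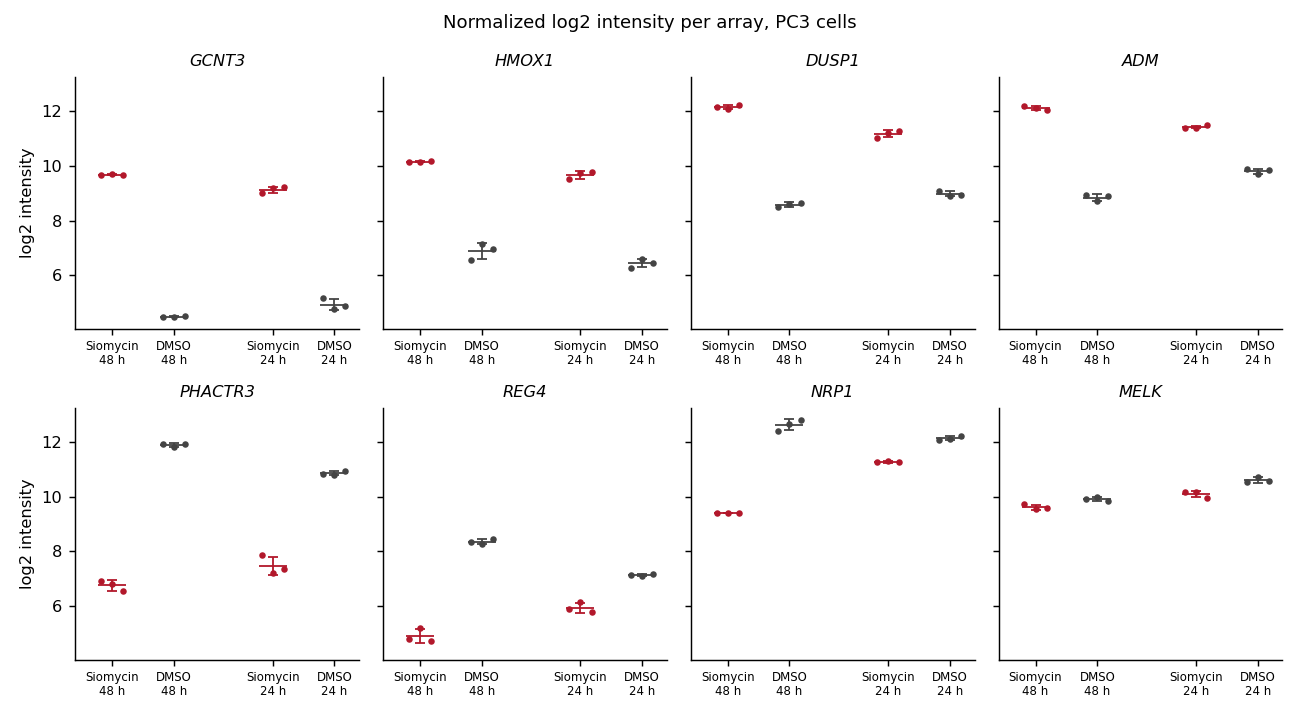
Normalized log2 intensity (y axis) of 8 genes on each PC3 array, for Siomycin 48 h, DMSO 48 h, Siomycin 24 h and DMSO 24 h (x axis, 3 arrays each, red for Siomycin and dark grey for DMSO). Dots are arrays, and bars give the mean ± SD. GCNT3, HMOX1, DUSP1 and ADM lay above their controls at both times and PHACTR3, REG4 and NRP1 below, while MELK differed by only 0.30 at 48 h.

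Interferon-induced antiviral genes had the highest share of members lower among the lists of at least 10 tested genes described here. Interferons act through the receptor chains IFNAR1 and IFNAR2 and the factor ISGF3, whose DNA-binding subunit is IRF9, and this factor binds a response element in the promoters of antiviral genes. Of 49 antiviral effectors tested, 38 fell and 2 rose, with a median of -1.02, and of 17 sensors and factors 9 fell and 1 rose (median -0.53). With median centring the effectors had 1 higher and 40 lower, and against DMSO 24 h the sensors had 4 higher and 7 lower. With only probes above background on all 24 arrays kept, a filter that leaves out dimmer members, 16 effectors and 4 sensors and factors were lower. OAS2, which makes the activator of RNase L, had 5.15, 5.33 and 4.68 in Siomycin 48 h and 9.98, 8.82 and 8.80 in DMSO 48 h (-4.15 ± 0.23, adjusted p = 2.03e-11). MX1, a GTPase that traps viral ribonucleoproteins, had 7.02, 7.39 and 7.09 in Siomycin 48 h and 11.59, 10.49 and 10.27 in DMSO 48 h (-3.62 ± 0.26). Both genes had no overlap between the groups, and in both DMSO replicate 1 was the highest array.

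IFITM1, a membrane protein that blocks virus entry, fell by 2.92 ± 0.27, and PARP9 fell by 2.69 ± 0.14. IFIT1, which binds foreign RNA ends, fell by 2.58 ± 0.23, SAMD9 fell by 2.53 ± 0.24 and OAS3 fell by 2.05 ± 0.25. BST2, the tether of budding virions, was at least 3.15-fold lower (adjusted p = 1.23e-07). The RNA sensors fell with them: IFIH1 by 2.01 ± 0.27, and RIGI by at least 2.58-fold (adjusted p = 0.000281). The receptor chain IFNAR1 had 6.45, 6.81 and 6.77 in Siomycin 48 h and 8.38, 8.07 and 8.23 in DMSO 48 h, a fall of 1.55 ± 0.13. IRF9 fell by 1.12 ± 0.20 and IRF1, a factor of the interferon gamma response, by 0.82 ± 0.14. IFI44 went against the group, with 8.87, 9.04 and 8.75 in Siomycin 48 h and 8.20, 7.59 and 7.54 in DMSO 48 h (1.11 ± 0.17). SOCS1, the feedback inhibitor of JAK kinases, was at least 2.21-fold higher (adjusted p = 0.000851). The remaining effector called higher, PNPT1, rose by 0.33 ± 0.10 on its brightest probe, while its dimmest probe had 5.40 in Siomycin 48 h and 6.40 in DMSO 48 h.

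The counts of falling effectors depended on the control arrays. DMSO replicate 1 was the highest of the 3 DMSO 48 h arrays in 37 of the 38 effectors that fell (97.4%), with a median gap of 0.61 to the mean of the other replicates. It was highest in 34.6% of all genes. The 38 were chosen by a call that uses these same arrays, so their share is partly set by that choice. The share of all genes is not. Without it, 32 effectors fell and 4 rose. In DMSO the effectors were higher at 48 h than at 24 h in 30 of 49 cases, with a median difference of 0.57, and set against DMSO 24 h the Siomycin 48 h arrays had 18 effectors lower and 6 higher. On that control OAS2, MX1 and IFNAR1 remained lower, while IFITM1 (-0.53 ± 0.27, adjusted p = 0.12) BST2 (-0.09 ± 0.18, adjusted p = 0.729) and IRF9 (0.39 ± 0.20, adjusted p = 0.119) did not pass. The part that cell density or medium plays in the DMSO values was not tested. At 24 h the effectors' median Siomycin effect was 0.02, with 4 higher and 2 lower, and the difference between the times was called for 31 effectors, all more negative at 48 h. In LNCaP at 48 h 6 were higher and 4 lower (median 0.01), and the effect was more negative in PC3 for 38 effectors.

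**Figure D3:**
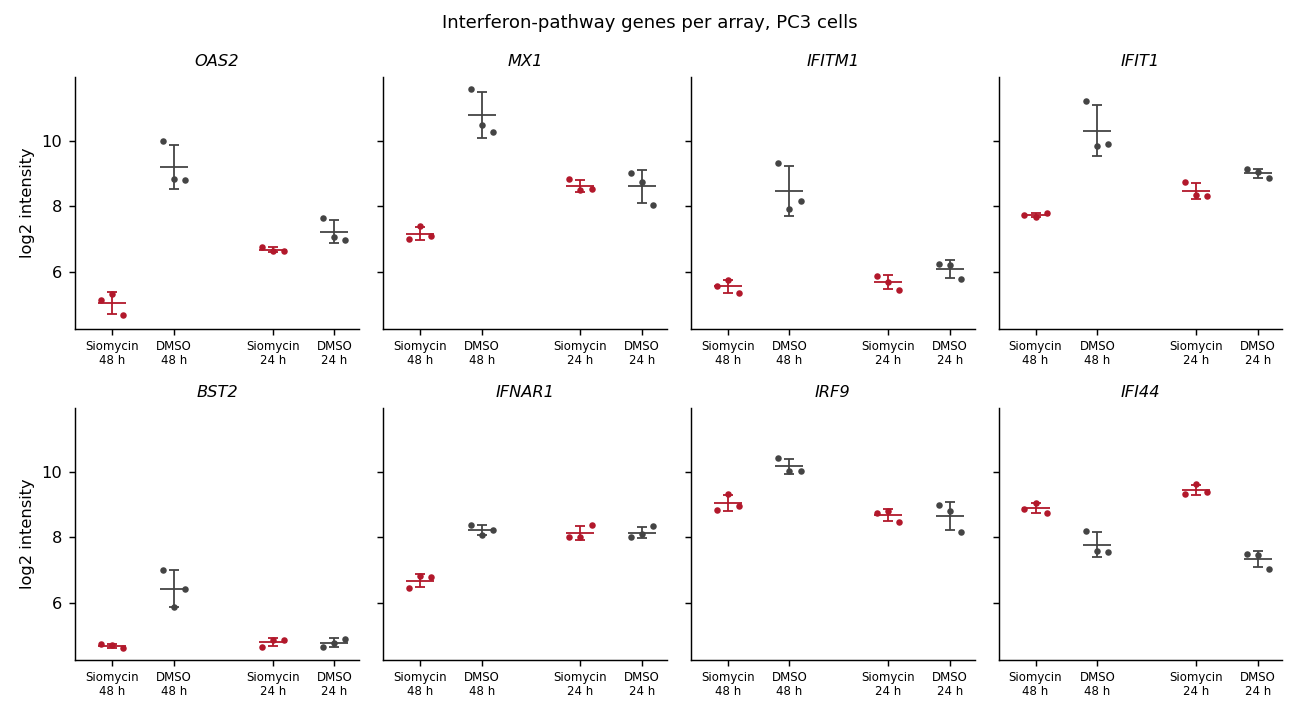
Normalized log2 intensity (y axis) of 8 interferon-pathway genes on each PC3 array, grouped as Siomycin 48 h, DMSO 48 h, Siomycin 24 h and DMSO 24 h (x axis, 3 arrays each). Dots are arrays and bars the mean ± SD. In OAS2 and MX1 the Siomycin 48 h arrays are lowest of the 4 groups, in IFITM1 and BST2 they match the 24 h levels while DMSO 48 h is high, and IFI44 is higher with Siomycin at both times.

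Promoters of some of these genes are shown because falling members and the rising IFI44 carry the same element. The window searched was the 250 bases before the first listed start of each gene in the RefSeq promoter table (GRCh38.p14), and the interferon-stimulated response element was searched on both strands as GAAANNGAAA, with overlapping matches allowed. It was found in 20 of the 32 falling effectors with a promoter in the table (62.5%) and in 1 of the 2 rising ones (50.0%). Among all 41 effectors with a promoter 24 held it (58.5%). The share was 244 of 10612 for all genes tested (2.3%) and 839 of 27305 for all promoters (3.07%). The stretches below end at the base before the start, and capitals mark the element, which reads TTTCNNTTTC on the opposite strand.
SAMD9 (chr7:93117980-93118129, minus strand): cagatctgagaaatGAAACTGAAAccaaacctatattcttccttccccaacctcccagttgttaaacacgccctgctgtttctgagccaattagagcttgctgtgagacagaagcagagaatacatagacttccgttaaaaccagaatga
BST2 (chr19:17405631-17405780, minus strand): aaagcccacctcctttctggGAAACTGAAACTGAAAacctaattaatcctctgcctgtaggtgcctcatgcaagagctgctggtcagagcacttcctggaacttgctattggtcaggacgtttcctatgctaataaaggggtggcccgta
IFIT1 (chr10:89392473-89392622, plus strand): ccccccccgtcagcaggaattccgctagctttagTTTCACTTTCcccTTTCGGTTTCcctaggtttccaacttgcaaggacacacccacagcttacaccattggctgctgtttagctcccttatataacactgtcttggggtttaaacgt
IFI44 (chr1:78649639-78649788, plus strand): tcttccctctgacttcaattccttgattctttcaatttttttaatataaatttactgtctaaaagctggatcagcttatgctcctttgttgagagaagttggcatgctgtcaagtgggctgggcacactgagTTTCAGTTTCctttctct
SAMD9 holds 1 match beginning 136 bases before the start, BST2 holds 2 that overlap, at 130 and 124 bases, and IFIT1 holds 2, at 116 and 103 bases. IFI44, which rose, holds 1 at 18 bases. The MX1 window holds no match to these letters, and OAS2 has no entry in the table.

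Of 21 genes of the class I pathway and its stress ligands 8 rose and 2 fell (3 and 4 with median centring). ULBP2 and MICA, ligands of the natural killer receptor NKG2D, rose by 1.47 ± 0.11 and 1.44 ± 0.22. Another ligand of that receptor, ULBP1, fell by 1.32 ± 0.10, but was higher by 0.40 ± 0.10 against DMSO 24 h. PSMB8, the interferon-inducible proteasome subunit, fell by 1.11 ± 0.14.

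Transcripts of most subunits of the standing proteasome were higher than in DMSO 48 h. Of the 29 subunits of the core and regulatory particles that were tested, 26 rose and 0 fell, with a median of 0.58. In the core, 5 of 6 alpha and 6 of 7 beta subunits rose, and in the regulatory particle 4 of 5 ATPases and 11 of 11 non-ATPases. With median centring 4 alpha subunits, 6 beta subunits, 1 ATPase and 7 non-ATPases were higher and 0 lower, and against DMSO 24 h 2, 6, 2 and 7 were higher and 1 alpha subunit and 1 ATPase lower. PSMB2, a beta subunit, had 12.45, 12.43 and 12.41 in Siomycin 48 h and 11.17, 11.28 and 11.14 in DMSO 48 h (1.23 ± 0.09, adjusted p = 1.13e-09). PSMA2 of the alpha ring rose by 1.33 ± 0.11, and the lid subunits PSMD11 and PSMD3 by 1.37 ± 0.14 and 1.20 ± 0.12. The arrays of the treated cells lay above all control arrays in each of these. The lowest value was that of PSMA3 (-0.04 ± 0.11, adjusted p = 0.802), whose other probe had 11.13 in Siomycin 48 h and 10.71 in DMSO 48 h. Of 13 assembly factors and activators 3 rose and 5 fell (3 fell without Siomycin replicate 1). With median centring 0 rose and 6 fell, and against DMSO 24 h 0 rose and 8 fell. POMP, which matures the core, rose by 0.37 ± 0.09 and the activator PSME4 by 0.60 ± 0.08, of which neither passed against DMSO 24 h or with median centring, whereas PSMD5, a chaperone of the regulatory base, fell by 1.27 ± 0.16.

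At 24 h 28 of the same 29 subunits had risen and the median was 0.56, so the level of the response was close at both times, with 3 subunits differing in effect. In LNCaP at 48 h 0 rose and 13 fell (median -0.18), and the effect was called higher in PC3 for 26 of them. The DMSO 48 h arrays were lower than DMSO 24 h in 19 subunits (median -0.38). Set against DMSO 24 h, the whole list of 42 had 17 members higher and 10 lower in place of 29 and 5, and with median centring 18 and 6. VCP, the segregase that feeds ubiquitylated proteins to the proteasome, rose by 0.92 ± 0.09. The small MAF proteins MAFF (1.83 ± 0.20) and MAFG (1.48 ± 0.11), DNA-binding partners of NRF1 and NRF2, rose too.

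Of 73 antioxidant and NRF2 target genes 41 rose and 13 fell, with a median of 0.36 (26 and 13 with median centring, 41 and 10 against DMSO 24 h). Quinone, aldehyde and NADPH enzymes rose in 16 of 21 cases and fell in 3, and with median centring 7 were higher and 3 lower. AKR1C3, a ketosteroid and prostaglandin reductase, had 10.67, 10.70 and 10.58 in Siomycin 48 h and 8.54, 8.53 and 8.41 in DMSO 48 h (2.15 ± 0.18). Carbonyl reductase CBR3 rose by 1.54 ± 0.14 and the aldehyde dehydrogenase ALDH2 by 1.49 ± 0.15, and other aldehyde dehydrogenases fell, ALDH1A3 by 1.10 ± 0.09 and ALDH3A1 by 0.86 ± 0.12. CBR3 did not pass against DMSO 24 h (0.12 ± 0.14, adjusted p = 0.535). Beside HMOX1, the biliverdin reductase gene BLVRB rose (9.99, 10.28 and 10.30 in Siomycin 48 h, 8.13, 7.81 and 7.97 in DMSO 48 h, 2.22 ± 0.09).

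Of 24 glutathione genes 12 rose and 5 fell (7 and 5 with median centring, 17 and 1 against DMSO 24 h). GSR, which regenerates glutathione, rose by 1.45 ± 0.11 and the sulfiredoxin SRXN1 by 1.13 ± 0.09. The cystine importer SLC7A11 rose by 0.93 ± 0.10, less than its 24 h effect of 2.34. On the falling side were GSS, the last enzyme of glutathione synthesis (-0.88 ± 0.08), the conjugate exporter ABCC3 (-1.54 ± 0.19) and CHAC1, which cleaves glutathione (-1.63 ± 0.18). GSS and ABCC3 did not pass against DMSO 24 h (adjusted p = 0.0657 and 0.0658), and CHAC1 was higher by 1.20 ± 0.18.

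Genes of amino acid supply fell in PC3 at 48 h. Of 18 genes of amino acid synthesis 12 fell and 4 rose (median -0.77), of 14 transporters 9 fell and 3 rose (median -0.67), and of 18 tRNA synthetases 12 fell and 2 rose (median -0.41). With median centring the falls were 13, 8 and 13 and the rises 1, 1 and 0, and against DMSO 24 h the falls were 4, 6 and 4 and the rises 9, 5 and 4. CBS, which starts cysteine synthesis from homocysteine, had 5.79, 6.23 and 5.59 in Siomycin 48 h and 8.66, 8.46 and 8.46 in DMSO 48 h (-2.65 ± 0.14, adjusted p = 5.21e-12). The 3 enzymes of serine synthesis fell together: PSAT1 fell by 1.54 ± 0.06, PSPH fell by 1.49 ± 0.12 and PHGDH fell by 1.08 ± 0.08. Among transporters SLC7A1, for arginine and lysine, fell by 1.70 ± 0.10, SLC38A1, for glutamine, by 1.53 ± 0.10, and SLC7A5, for large neutral amino acids, by 1.04 ± 0.16. CTH, which completes cysteine synthesis, went the other way (1.14 ± 0.11).

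The regulators of the same pathway were divided, with 7 of 26 higher and 10 lower (15 and 5 against DMSO 24 h). DDIT3, the death-promoting factor CHOP, had 12.47, 12.26 and 12.45 in Siomycin 48 h and 10.62, 10.53 and 10.42 in DMSO 48 h (1.87 ± 0.08), and GADD45B (1.70 ± 0.15) and ATF3 (0.99 ± 0.08) rose with it. TRIB3, a pseudokinase induced by ATF4 and CHOP, had 12.43, 12.36 and 12.36 in Siomycin 48 h and 13.56, 13.49 and 13.53 in DMSO 48 h (-1.15 ± 0.08). So genes known as ATF4 targets lay on both sides.

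These falls stood against controls in which the same genes were high. In DMSO 48 h CBS was higher than in DMSO 24 h by 2.86, PSAT1 by 2.07 and TRIB3 by 3.38. Set against DMSO 24 h, the whole list of 76 genes had 33 higher and 19 lower in place of 16 and 43. On that control PSAT1 (0.53 ± 0.06), PHGDH (0.37 ± 0.08), SLC7A5 (0.45 ± 0.16) and TRIB3 (2.23 ± 0.08) were higher, CBS (0.21 ± 0.14, adjusted p = 0.227) and PSPH (-0.23 ± 0.12, adjusted p = 0.116) did not pass, and DDIT3, CTH, SLC7A1 and SLC38A1 kept their direction. What raised these genes in the DMSO cultures, nutrient use included, was not tested. In LNCaP at 48 h 12 of the 18 synthesis genes rose and 4 fell, and the effect was lower in PC3 for 13 of the 18.

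Of 18 AP-1, EGR and ZFP36 genes 11 rose and 0 fell (median 0.67; 13 and 2 against DMSO 24 h). ZFP36 had 9.77, 9.61 and 9.73 in Siomycin 48 h and 6.81, 6.86 and 6.95 in DMSO 48 h, its relative ZFP36L1 rose by 1.89 ± 0.15, the matricellular protein CCN1 by 1.86 ± 0.14, and the AP-1 subunits JUN and FOSL1 by 1.43 ± 0.07 and 1.22 ± 0.17. Of 11 Krüppel-like factors KLF2 (2.70 ± 0.11) and KLF6 (2.04 ± 0.11) rose and 2 others fell (4 higher and 2 lower against DMSO 24 h). MYC, the growth-promoting factor, had 12.63, 12.70 and 12.82 in Siomycin 48 h and 11.18, 11.32 and 11.23 in DMSO 48 h (1.47 ± 0.08). At 24 h its effect was 0.26 and in LNCaP at 48 h 0.02.

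Among 16 feedback genes 8 rose and 5 fell. DUSP1 and DUSP5 (1.49 ± 0.14), phosphatases of the cell nucleus, rose, while DUSP6, a cytoplasmic phosphatase selective for ERK, fell by 1.05 ± 0.16. SPRY4, a Sprouty inhibitor of receptor tyrosine kinase signalling, had 8.10, 8.02 and 7.92 in Siomycin 48 h and 10.11, 10.21 and 10.18 in DMSO 48 h (-2.15 ± 0.07). SPRY1 (-1.87 ± 0.08) and the related SPRED1 (-1.81 ± 0.15) and SPRED2 (-1.72 ± 0.11) fell likewise, and SPRY2 rose by 1.36 ± 0.19. Dim probes of SPRY4 (0.30), ABCG1 (0.18 and 0.24) and CDKN2B (0.06), each near background, did not show the falls given for these genes.

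Of 18 mevalonate and cholesterol genes 10 rose and 3 fell (median 0.41), but with median centring 3 rose and 4 fell, and against DMSO 24 h 6 and 2. HMGCS1, which makes the precursor of mevalonate, had 10.22, 10.02 and 10.09 in Siomycin 48 h and 8.43, 8.32 and 8.22 in DMSO 48 h (1.79 ± 0.09). The methyl sterol oxidase MSMO1 rose by 1.70 ± 0.12, the isomerase IDI1 by 1.17 ± 0.17 and INSIG1, which retains the sterol sensor in the endoplasmic reticulum, by 2.19 ± 0.09, while the kinase PMVK fell by 0.87 ± 0.10. ABCA1, the exporter of cholesterol to HDL precursors, had 5.48, 5.60 and 5.17 in Siomycin 48 h and 8.21, 8.49 and 8.30 in DMSO 48 h (-2.91 ± 0.12). ABCG1, another cholesterol exporter, fell by 1.90 ± 0.11 on its brightest probe and was at 0.05 ± 0.11 against DMSO 24 h. At 24 h 1 of the 18 synthesis genes had risen and 2 had fallen, and the 48 h effect was higher for 8 and lower for 3.

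In fatty acid metabolism 5 of 21 genes rose and 4 fell (7 and 7 against DMSO 24 h). ANGPTL4, a lipase inhibitor, rose by 2.59 ± 0.11, and ACACB, the carboxylase that restrains mitochondrial fat burning, fell by 2.35 ± 0.19, above background on 2 Siomycin arrays. The regulator SREBF1, which drives lipid synthesis, fell by 1.02 ± 0.13.

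Most glycolysis genes rose. Of 26 genes 17 rose and 1 fell (median 0.53; 16 and 1 with median centring, 12 and 6 against DMSO 24 h). ENO2, an enolase, had 10.03, 9.89 and 9.81 in Siomycin 48 h and 8.30, 8.19 and 8.17 in DMSO 48 h (1.69 ± 0.11). The aldolase ALDOC rose by 1.64 ± 0.10, hexokinase HK2 by 1.61 ± 0.15 and the glucose transporter SLC2A1 by 1.55 ± 0.09. The exception was PDK2, a kinase that inhibits pyruvate dehydrogenase, at least 1.57-fold lower (adjusted p = 0.000575). Of 25 hypoxia response genes 15 rose and 4 fell (median 0.51; 10 and 5 with median centring, 15 and 2 against DMSO 24 h). Beside ADM, NDRG1, a stress-response gene, rose by 2.05 ± 0.10 and the carbonic anhydrase CA12 by 1.60 ± 0.11, whereas the clock repressor BHLHE41 fell by 1.59 ± 0.19 and the glycoprotein hormone STC2 by 1.25 ± 0.08. STC2 was higher by 0.22 ± 0.08 against DMSO 24 h.

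The core hypoxia element ACGTG was searched on both strands in the same 250-base window. It was found in 16 of the 29 rising genes of these groups with a promoter in the table (55.2%). Among all genes of these groups with a promoter it was found in 20 of 45 (44.4%), whatever their direction. The share was 2449 of 10612 for all genes tested (23.1%) and 5101 of 27305 for all promoters (18.7%). For all genes called at least 2-fold higher it was 77 of 344 (22.4%). The stretches of a pair of rising glycolysis genes up to the base before the start (RefSeq, GRCh38.p14) are shown with the element in capitals, which reads CACGT on the opposite strand.
ENO2 (chr12:6914450-6914579, plus strand): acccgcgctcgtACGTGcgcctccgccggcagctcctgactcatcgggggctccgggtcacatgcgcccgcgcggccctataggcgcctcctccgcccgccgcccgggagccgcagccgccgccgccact
HK2 (chr2:74833997-74834126, plus strand): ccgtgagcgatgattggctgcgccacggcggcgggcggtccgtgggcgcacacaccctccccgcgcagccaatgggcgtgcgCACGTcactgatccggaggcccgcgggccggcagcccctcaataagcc
The match begins 118 bases before the start in ENO2 and 48 bases before it in HK2. HK2 itself had 9.89, 10.15 and 10.12 in Siomycin 48 h and 8.34, 8.48 and 8.50 in DMSO 48 h.

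Metallothioneins, small proteins that bind zinc and copper, rose in part. MT1X had 13.31, 13.29 and 13.28 in Siomycin 48 h and 11.15, 11.08 and 11.12 in DMSO 48 h (2.17 ± 0.08), with a 24 h effect of 0.62. MT1G rose by 2.23 ± 0.10, MT1E by 1.31 ± 0.15 and MT2A by 0.69 ± 0.07, while MT1H fell by 0.54 ± 0.14 (above background on 1 Siomycin array) and MT1F by 0.36 ± 0.10. These genes are near-identical copies, so probes may share transcripts. Against DMSO 24 h MT2A (adjusted p = 0.267), MT1F (0.06 ± 0.10) and MT1H (adjusted p = 0.0718) did not pass. The zinc exporter SLC30A1 rose by 0.62 ± 0.11 (0.18 ± 0.19 and adjusted p = 0.513 with median centring).

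The rising MT1X and the falling MT1H lie on the same chromosome, and both promoters carry the metal response element, searched on both strands as TGCACNC and TGCGCNC. It was found in 3420 of 10612 promoters of the genes tested (32.2%) and in 6751 of all 27305 promoters (24.7%). Capitals mark it in the stretches up to the base before the start (RefSeq, GRCh38.p14), where GNGTGCA and GNGCGCA are the opposite strand's letters.
MT1X (chr16:56682310-56682469, plus strand): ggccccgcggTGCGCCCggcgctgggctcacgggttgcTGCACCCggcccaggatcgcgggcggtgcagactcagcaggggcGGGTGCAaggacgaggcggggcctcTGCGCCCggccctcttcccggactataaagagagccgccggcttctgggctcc
MT1H (chr16:56669654-56669813, plus strand): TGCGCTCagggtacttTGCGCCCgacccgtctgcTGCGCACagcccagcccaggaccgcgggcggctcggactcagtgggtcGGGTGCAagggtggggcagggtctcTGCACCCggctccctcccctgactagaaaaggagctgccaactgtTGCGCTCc
MT1X holds 4 matches in this stretch and MT1H holds 6. The number of matches and the direction of change therefore differed in this pair.

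Cell cycle genes were called lower more often than all genes at 48 h. Of 88 mitosis genes 36 fell and 16 rose (median -0.18), and of 83 DNA replication and nucleotide genes 29 fell and 15 rose. In both lists the share called higher was close to the 19.5% of all genes. With median centring the counts were 51 lower and 1 higher for mitosis and 38 and 4 for replication. Among spindle and kinetochore genes 29 of 59 fell and 8 rose (39 and 0 with median centring, 55 and 0 against DMSO 24 h). HMMR, a spindle organiser, had 8.59, 8.73 and 8.41 in Siomycin 48 h and 10.03, 10.05 and 10.02 in DMSO 48 h (-1.46 ± 0.10). The kinetochore protein SKA3 fell by 1.73 ± 0.20, the kinesin KIF18A fell by 1.29 ± 0.22, GTSE1, a microtubule protein of G2, by 1.04 ± 0.08, and the phosphatase CDC25B by 1.32 ± 0.08. Cyclin B1 (CCNB1) fell by 0.58 ± 0.15.

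Some mitosis genes, kinases among them, were higher than in DMSO 48 h. WEE1, which holds CDK1 inactive, had 7.73, 7.96 and 7.79 in Siomycin 48 h and 6.86, 6.82 and 6.94 in DMSO 48 h (0.95 ± 0.10). BUB1B of the spindle checkpoint rose by 0.68 ± 0.16, CDK1 by 0.55 ± 0.13 and INCENP, the scaffold of Aurora B, by 0.76 ± 0.12. With median centring BUB1B (adjusted p = 0.43), CDK1 (adjusted p = 0.119) and INCENP (adjusted p = 0.149) did not pass. Against DMSO 24 h BUB1B (-0.64 ± 0.16) and CDK1 (-0.79 ± 0.13) were lower and INCENP was at -0.02 ± 0.12, and on that control 76 mitosis genes were lower and 3 higher. The DMSO arrays themselves had 77 mitosis genes lower at 48 h than at 24 h. At 24 h Siomycin lowered 64 of the 88 and raised 0, and in LNCaP at 48 h 83 fell and 1 rose.

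MELK had 9.72, 9.53 and 9.59 in Siomycin 48 h and 9.90, 9.99 and 9.85 in DMSO 48 h. The groups did not overlap, and the fall of 0.30 ± 0.10 passed (adjusted p = 0.0227), but not without Siomycin replicate 2 (adjusted p = 0.0826) or 3 (0.0601) or DMSO replicate 2 (0.0852), nor as the mean of its probes (-0.17, adjusted p = 0.0939). Over the 17 other settings of processing, control and replicates the MELK value ran from -1 to -0.17. FOXM1 had 7.56, 7.73 and 7.54 in Siomycin 48 h and 7.69, 7.94 and 7.80 in DMSO 48 h, groups that overlapped, and its difference of -0.20 ± 0.12 did not pass (adjusted p = 0.18). It passed with median centring (-0.64, adjusted p = 0.00449) and against DMSO 24 h (-0.74, adjusted p = 2.45e-05). Of the 8 genes that regulate mitotic transcription 1 rose and 1 fell (0 and 4 with median centring, 2 and 3 against DMSO 24 h).

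The cell cycle homology region TTTGAA, bound by the DREAM complex and its partners, was searched on both strands in the 250-base window. It was found in 20 of 31 falling mitosis genes with a promoter in the table (64.5%) and in 5 of 11 rising ones (45.5%). Among all mitosis genes with a promoter it was found in 35 of 75 (46.7%), whatever their direction. The share was 958 of 10612 for all genes tested (9.03%) and 3704 of 27305 for all promoters (13.6%). Stretches of the falling HMMR and KIF18A, up to the base before the start (RefSeq, GRCh38.p14), are shown with the letters in capitals.
HMMR (chr5:163460532-163460631, plus strand): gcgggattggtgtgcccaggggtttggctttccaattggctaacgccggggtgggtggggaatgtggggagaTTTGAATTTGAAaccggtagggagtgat
KIF18A (chr11:28108157-28108256, minus strand): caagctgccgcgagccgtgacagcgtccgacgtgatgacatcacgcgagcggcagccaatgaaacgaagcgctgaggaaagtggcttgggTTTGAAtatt
HMMR holds 2 adjoining matches, at 28 and 22 bases before the start, and KIF18A holds 1 at 10 bases.

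Among replication genes the origin factor ORC5 had 9.03, 8.84 and 8.90 in Siomycin 48 h and 10.73, 10.81 and 10.74 in DMSO 48 h (-1.84 ± 0.08). The polymerase subunit POLA1 fell by 1.19 ± 0.13, the helicase factor CDC45 by 0.77 ± 0.17 and IMPDH2 of guanine nucleotide synthesis by 0.81 ± 0.09. CDT1, which loads the helicase, rose by 1.31 ± 0.21, the purine enzyme PPAT by 1.05 ± 0.07, the helicase subunit MCM2 by 0.58 ± 0.14 and the ribonucleotide reductase RRM1 by 0.57 ± 0.07. Against DMSO 24 h CDT1 was at -0.37 ± 0.21 (adjusted p = 0.159) and MCM2 (-1.12 ± 0.14) and RRM1 (-0.49 ± 0.07) were lower, and of the 83 genes 67 were lower and 4 higher.

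Of 22 G1 cyclins, CDK inhibitors and MYC network genes 8 rose and 8 fell. CDKN2B, the TGF-beta-induced inhibitor p15, had 7.33, 7.55 and 7.62 in Siomycin 48 h and 10.10, 10.10 and 10.12 in DMSO 48 h (-2.60 ± 0.16), and was at -0.14 ± 0.16 against DMSO 24 h. Other inhibitors rose, CDKN1C (p57) by 1.63 ± 0.26, CDKN2D (p19) by 1.19 ± 0.10 and CDKN1B (p27) by 0.97 ± 0.09. Cyclin D1 (CCND1) and its kinase CDK4 fell by 0.54 ± 0.08 and 0.49 ± 0.07.

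Of 45 histone genes 20 rose and 9 fell. H2BC21 had 11.78, 11.59 and 11.69 in Siomycin 48 h and 9.60, 9.50 and 9.59 in DMSO 48 h (2.12 ± 0.08), H2BC4 rose by 1.76 ± 0.12 and H2BC11 by 1.62 ± 0.16, while H4C3 fell by 0.89 ± 0.08. At 24 h 0 of the 45 had risen and 19 had fallen, and the effects at the times differed for 25. The genes are close copies, so cross-hybridisation between members cannot be separated here. The counts moved little with the control, to 22 higher and 8 lower against DMSO 24 h.

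The chaperone HSPA5 (BiP) of the endoplasmic reticulum had 11.12, 11.14 and 11.29 in Siomycin 48 h and 9.20, 9.15 and 9.20 in DMSO 48 h (2.0 ± 0.11). Of 37 endoplasmic reticulum genes 11 were higher and 14 lower (4 and 17 with median centring, 15 and 9 against DMSO 24 h). EDEM1, which marks misfolded glycoproteins, fell by 1.01 ± 0.10, and the stress sensor ATF6 and its relative CREB3L2 by 0.72 ± 0.07 and 1.04 ± 0.07, of which neither passed against DMSO 24 h (adjusted p = 0.135 and 0.564). Of 44 cytosolic heat shock genes 18 rose and 8 fell (8 and 6 with median centring, 3 and 20 against DMSO 24 h, and 5 lower in place of 8 without DMSO replicate 2). HSPA1A (1.15 ± 0.09), whose copy HSPA1B is nearly identical, and HSPA4L (0.96 ± 0.14) rose, and the co-chaperones BAG3 and BAG5 fell by 0.84 ± 0.09 and 0.83 ± 0.09. Neither HSPA1A (adjusted p = 0.148) nor HSPA4L (-0.27 ± 0.14) passed against DMSO 24 h.

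Of 59 lysosomal genes 30 rose and 8 fell (11 and 11 with median centring, 24 and 5 against DMSO 24 h). The galactosidase GLA rose by 1.43 ± 0.07, the protease CTSD by 1.32 ± 0.17 and the cholesterol transporter NPC1 by 1.32 ± 0.09, and the lipase LIPA and the cystine carrier CTNS fell by 0.75 ± 0.11 and 0.79 ± 0.09. Of 31 core autophagy genes 8 were higher and 7 lower, against 3 and 10 with median centring and 15 and 9 against DMSO 24 h. GABARAPL1 had 10.54, 10.54 and 10.49 in Siomycin 48 h and 7.95, 7.79 and 7.55 in DMSO 48 h. ATG5, which conjugates autophagosome proteins, rose by 1.11 ± 0.15 and the cargo receptor SQSTM1 by 0.86 ± 0.09, and WIPI2, which recruits that conjugation machinery, and the kinase-complex subunit BECN1 fell by 1.68 ± 0.19 and 0.83 ± 0.09.

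**Figure D4:**
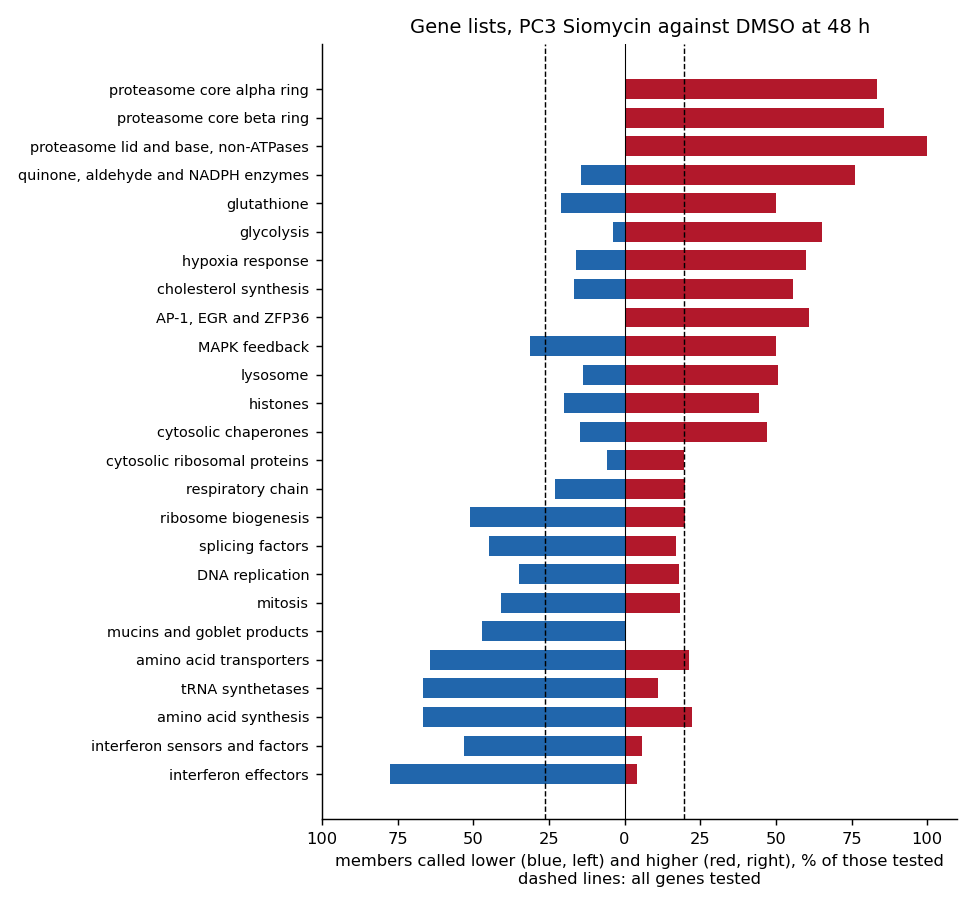
Share of tested members called higher (red bars, right) and lower (blue bars, left) in PC3 Siomycin 48 h over DMSO 48 h for 25 gene lists, in percent. Dashed lines mark the shares of all genes, 19.5% higher and 26.3% lower. The proteasome rings and the non-ATPase subunits have no member lower, and the interferon effectors have 38 of 49 members lower.

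Of 47 splicing factors 21 fell and 8 rose (23 and 4 with median centring, 30 and 4 against DMSO 24 h), with HNRNPM (-1.56 ± 0.09), SRSF3 (-1.43 ± 0.15) and SRSF1 (-1.37 ± 0.08) lowest. SRSF1, which defines exons, had 10.48, 10.24 and 10.30 in Siomycin 48 h and 11.73, 11.73 and 11.67 in DMSO 48 h. The kinases that phosphorylate SR proteins, CLK4 (1.07 ± 0.24) and CLK1 (0.94 ± 0.09), rose, as did SNRNP70 of the U1 particle (0.72 ± 0.06, but 0.03 ± 0.06 against DMSO 24 h). All 4 U1 RNA probe genes rose, by 2.35 to 2.82, and their copies cannot be told apart by these probes. Of 45 ribosome biogenesis genes 23 fell and 9 rose (27 and 1 with median centring, 26 and 5 against DMSO 24 h). IMP3 of the small subunit processome fell by 1.14 ± 0.07, the pseudouridine synthase DKC1 by 1.11 ± 0.09 and NOP56 of the box C/D particle by 0.85 ± 0.10, and TAF1D of the polymerase I factor rose by 1.04 ± 0.21. Cytosolic ribosomal proteins had a median of 0.01, with 14 of 71 higher (9 without DMSO replicate 2) and 4 lower (1 without DMSO replicate 1), a share called higher close to that of all genes. With median centring 5 were higher and 1 lower, and against DMSO 24 h 28 and 0. The ribosomal protein gene RPL23 rose by 0.78 ± 0.11.

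Of 17 mucins, trefoil factors and their regulators 8 fell and 0 rose. The disulfide isomerase AGR2, which folds mucins, had 9.41, 9.45 and 9.25 in Siomycin 48 h and 11.04, 11.12 and 11.43 in DMSO 48 h (-1.83 ± 0.18). The goblet cell factor SPDEF fell by 1.55 ± 0.13, the trefoil peptide TFF2 by 1.37 ± 0.12 and the membrane mucin MUC1 by 0.93 ± 0.11. Of 29 O-glycan enzymes 10 rose and 4 fell (5 and 4 with median centring), from GCNT3 and its relative GCNT2 (1.05 ± 0.08) to the sialyltransferase ST6GALNAC2 (-1.42 ± 0.26). AGR2 (adjusted p = 0.427) and ST6GALNAC2 (adjusted p = 0.0988) did not pass against DMSO 24 h.

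Of 44 growth factor genes 12 were higher and 15 lower (4 and 19 with median centring). Of 67 epithelial, mesenchymal and matrix genes 12 were higher and 17 lower, shares close to those of all genes, and with median centring 3 and 22. IGFBP5, a carrier of insulin-like growth factors, had 8.21, 8.37 and 8.20 in Siomycin 48 h and 10.88, 10.86 and 10.87 in DMSO 48 h (-2.61 ± 0.14). The BMP receptor BMPR2 fell by 2.62 ± 0.17 (above background on 1 Siomycin array), the inhibitory SMAD6 by 1.53 ± 0.13 and the EGF receptor ligand BTC by at least 2.61-fold (adjusted p = 3.73e-06, and 0.107 against DMSO 24 h), and the receptor EGFR rose by 1.01 ± 0.11. The tight junction protein CLDN1 fell by 2.09 ± 0.18, the hyaluronan synthase HAS3 by 2.16 ± 0.12 and thrombospondin THBS1 by 1.61 ± 0.09. The laminin chain LAMB3 and the fibronectin receptor chain ITGA5 rose by 1.84 ± 0.09 and 1.73 ± 0.16. The NF-kB subunit gene NFKB1 fell by 1.43 ± 0.08 and the cytokine IL1B by 1.21 ± 0.10, and the chemokine CXCL2 rose by 1.15 ± 0.19 beside CCL26.

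Tubulin isotypes rose in 7 of 17 cases and fell in 2, but were higher in 5 and lower in 8 against DMSO 24 h and in 5 and 4 with median centring. TUBB4A, normally a neuronal isotype, had 9.68, 9.78 and 9.88 in Siomycin 48 h and 7.25, 6.97 and 7.20 in DMSO 48 h (2.64 ± 0.09), and TUBA4A (2.22 ± 0.09) and TUBB2A (2.01 ± 0.10) followed. In polyamine metabolism SAT1, which acetylates spermidine and spermine, had 13.54, 13.66 and 13.51 in Siomycin 48 h and 11.24, 11.20 and 11.30 in DMSO 48 h (2.32 ± 0.07), and PAOX, which oxidises the acetylated products, fell by 1.77 ± 0.12.

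Of 19 BCL2 family genes 4 rose and 3 fell, a share called higher close to that of all genes, against 2 and 4 with median centring and 11 and 3 against DMSO 24 h. BCL2L11, the BH3 protein BIM, had 7.72, 7.05 and 6.87 in Siomycin 48 h and 5.08, 5.29 and 5.36 in DMSO 48 h (1.97 ± 0.29). Of 13 caspases and their regulators 1 rose and 6 fell (0 and 8 with median centring, 2 and 9 against DMSO 24 h), with the death receptor adaptor FADD (-1.37 ± 0.10) and its competitor CFLAR (-0.98 ± 0.20) among the falls. The TRAIL receptor TNFRSF10A rose by 1.17 ± 0.13. Among 20 genes known as p53 targets 5 rose and 5 fell, shares near those of all genes, in a line without functional p53. They ran from TP53I3 (-1.75 ± 0.24) and the repair factor XPC (-1.67 ± 0.10) to MDM2, at least 1.78-fold higher (adjusted p = 0.00412).

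The 48 h effect of Siomycin differed from the 24 h effect in 3348 genes (25.1%), 1260 with a higher and 2088 with a lower effect at 48 h (limma, interaction of time and treatment). The 2 effects have separate arrays. Of the genes called at 48 h 2255 were also called at 24 h, which is 36.9% of the 48 h calls and 73.5% of the 3066 calls at 24 h. Of these 900 were higher at both times, 1093 lower at both and 262 opposite. EYA3 was at 3.69 at 48 h and 0.94 at 24 h, PHACTR3 at -5.13 and -3.39, and HMOX1 at 3.27 and 3.23. At least 2-fold changes at 48 h in genes not called at 24 h numbered 164 rises and 425 falls.

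In opposite directions at the times went GRPR, the receptor of the growth factor bombesin, with a rise of 0.80 ± 0.14 at 48 h and a fall of 1.46 ± 0.14 at 24 h. The core histone gene H2AC8 had 1.35 at 48 h and -0.63 at 24 h, and CDCA7, a MYC-regulated cell cycle gene, 0.72 and -0.92. IHO1, known from meiosis, was at least 2.38-fold higher in Siomycin 48 h than in DMSO 48 h (adjusted p = 1.45e-06), where it was below background, and at 24 h it was below background in Siomycin. The ubiquitin ligase TRIM2 was at least 5.01-fold lower at 48 h (adjusted p = 1.21e-12) and higher by 0.66 ± 0.12 at 24 h. SLC22A23 (-1.96 and 0.53), CHAC1 (-1.63 and 0.84) and ZNF189 (-1.91 and 0.49) went the same way. Against DMSO 24 h CDCA7 was at -1.13 ± 0.12, GRPR did not pass (0.23 ± 0.14, adjusted p = 0.201), and the SLC22A23 probe detected on all arrays did not differ between the times beyond its error (-0.41 ± 0.22, adjusted p = 0.138).

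**Figure D5:**
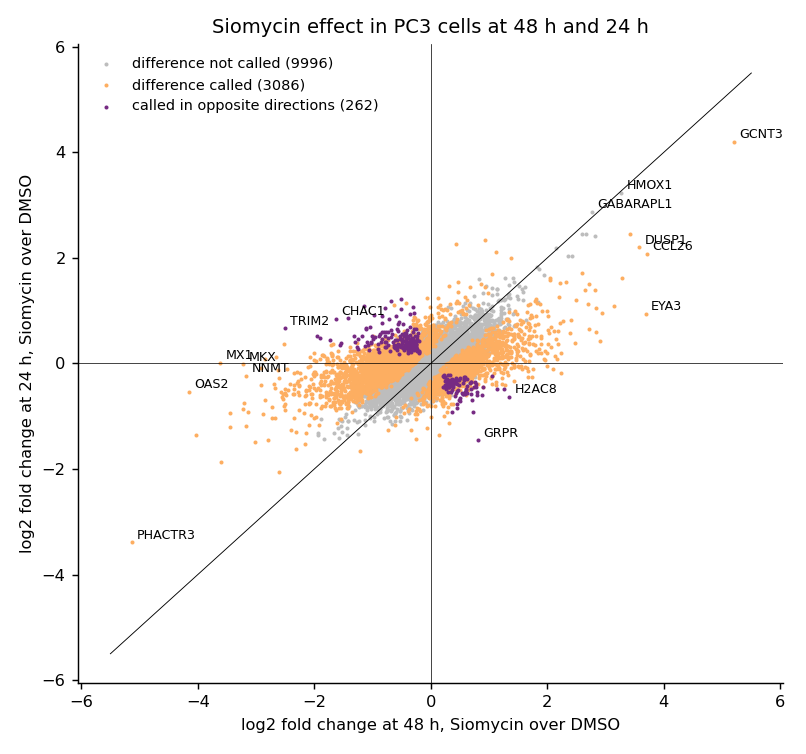
Log2 fold change of Siomycin over DMSO in PC3 cells at 48 h (x axis) and at 24 h (y axis) for 13344 genes. Orange genes have a called difference between the times, and the 262 violet genes were called in opposite directions. Genes on the diagonal line have the same effect at both times, as HMOX1 nearly does, and OAS2, MX1, MKX and NNMT lie near 0 at 24 h and far below 0 at 48 h.

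Between the lines at 48 h the effect differed in 5766 genes (43.2%), 2534 higher and 3232 lower in PC3. Of the PC3 calls 2846 were also called in LNCaP (46.6% of the PC3 and 57.1% of the 4987 LNCaP calls), 749 higher in both, 951 lower in both and 1146 opposite. The histone gene H2BC11 was at 1.62 in PC3 and -2.59 in LNCaP, CDT1 at 1.31 and -2.20, LINC00161 at 0.63 and -2.38, and TUBA4A at 2.22 and -0.63. The calcium-binding protein S100P was at -0.69 in PC3 and 3.93 in LNCaP, the kinase RPS6KA2 at -2.84 and 1.39, the stress protein NIBAN1 at -0.79 and 3.37, and the mitochondrial enzyme PCK2 at -1.97 and 2.02. On the DMSO 24 h control S100P (1.91 ± 0.14), NIBAN1 (1.11 ± 0.16) and PCK2 (0.91 ± 0.09) were higher in PC3 too. Of the 30 genes with the largest changes in PC3, GABARAPL1 (1.82), HMOX1 (1.06), ZFP36 (0.84), DUSP1 (0.81), JMY (0.63) and EYA3 (0.54) also rose in LNCaP and NRP1 (-0.56) also fell there, while GCNT3 (0.19, adjusted p = 0.224) and PHACTR3 (-0.05, adjusted p = 0.81) did not pass there.

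The shortest genes fell less often than longer ones, and from 5 kb up the share that fell was nearly flat. Of 1862 genes under 5 kb 19.9% fell and 19.4% rose. The share that fell was 27.4% at 5 to 10 kb, 26.9% at 10 to 50 kb and 27.0% at 50 to 100 kb. Of 2277 genes of 100 kb or more 28.8% fell and 16.6% rose. The median length was 20.6 kb for genes that rose at least 2-fold, 31.7 kb for those that fell at least 2-fold and 26.8 kb for all genes. These are descriptions across genes, which are not independent.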

How the data were processed

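Per the labels' protocols, biotin-labelled cRNA made from total RNA was read on Illumina bead arrays. The deposited intensities, per the file headers not normalized, came with a deposited detection p-value per probe, which behaved as two-sided. The authors' processed table holds log2 values that match quantile-normalized uncorrected intensities, and lumi is named in the submitters' processing notes (version not given in the sources used here). Intensities were background-corrected by normexp (offset 16), put on a log2 scale and quantile-normalized over 24 arrays with limma 3.58.1 in R 4.3.3. Probes above background (detection p under 0.01 and signal above the background centre) on at least 3 arrays were kept, 25215 of 47318, and 13344 genes had 1 or more. Names came from the platform annotation: 30111 probes had 1 gene, 8 several and 17199 none. A linear model with 8 group means was fitted to all 24 arrays and p-values were adjusted by Benjamini-Hochberg over all genes. Arrays have no read depth, and their number limits the precision. A fold written as "at least" sets the higher group's mean against the lowest signal above background.

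The genes named were the 15 largest changes each way, list members, MELK and FOXM1, and genes with opposite effects. The members and lists were chosen with earlier results of these data known. The fit was tested on simulated data. Same-numbered replicates of the compared groups did not deviate together (r of 0.041, 0.006 and -0.013), so the numbers were not taken as pairs.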

Additional observations from a re-analysis of the deposited data

Results flagged for a closer look

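The effect of Siomycin in PC3 differed between the times, tested as the interaction of time and treatment in limma, for 3348 genes. Among genes called in opposite directions, the difference of the 48 h effect minus the 24 h effect was 2.26 for GRPR, 1.98 for H2AC8, 1.74 for IHO1 and 1.64 for CDCA7. It was -3.17 for TRIM2, -2.49 for SLC22A23, -2.47 for CHAC1 and -2.40 for ZNF189. At 48 h the effect differed between the lines for 5766 genes. The effect in PC3 minus that in LNCaP was 4.21 for H2BC11, 3.51 for CDT1, 3.01 for LINC00161 and 2.85 for TUBA4A. It was -4.62 for S100P, -4.24 for RPS6KA2, -4.16 for NIBAN1 and -3.99 for PCK2.
TRIM2 was below background in Siomycin 48 h, and IHO1 in DMSO 48 h and in Siomycin 24 h, so their differences are fitted values that rest on the background level and are no measured sizes.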

How the results depend on the processing

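With each array centred on its median the genes called higher were 844 for Siomycin 48 h over DMSO 48 h, 266 for the difference between times, 1098 for the difference between lines and 531 for DMSO 48 h over DMSO 24 h. Under the other alternatives the counts over all genes stayed within 1.5 times, but counts of list members moved further under some of them. With only probes above background on all 24 arrays kept, 16 interferon effectors and 4 genes of the mucin list were lower. The main counts for these were 38 and 8, and that filter leaves out members such as OAS2. Of the epithelial, mesenchymal and matrix genes 3 were lower in place of 17, and of the growth factor genes 6 in place of 15. Counts of other lists moved under it as well. Leaving out 1 replicate gave 5528 to 5712 calls (2314 to 2411 higher, 3200 to 3320 lower), 2970 to 3204 for the times (1079 to 1218, 1877 to 2034), 5337 to 5587 for the lines (2337 to 2453, 2983 to 3164) and 3122 to 3334 for DMSO (1580 to 1687, 1533 to 1647). With the replicate number as a block 6105 genes were called, 3351 for the times, 5759 for the lines and 3762 for DMSO. Against DMSO 24 h the sign turned for CDCA7 (-1.13), CHAC1 (1.20), CDT1 (-0.37), LINC00161 (-0.32), S100P (1.91), NIBAN1 (1.11), PCK2 (0.91), PNPT1 (-0.21), IRF9 (0.39), ULBP1 (0.40), CBS (0.21), PSAT1 (0.53), PHGDH (0.37), SLC7A5 (0.45), TRIB3 (2.23), ABCG1 (0.05), STC2 (0.22), MT1F (0.06), BUB1B (-0.64), CDK1 (-0.79), INCENP (-0.02), MCM2 (-1.12), RRM1 (-0.49) and HSPA4L (-0.27). As the mean of its probes PNPT1 was at -0.02. The DMSO 48 h values of these genes differ from DMSO 24 h, and what sets that difference was not tested. LINC00161 did not pass without DMSO replicate 2 (0.50) or Siomycin replicate 2 (0.49). With median centring CDCA7 (0.32), LINC00161 (0.37), PNPT1 (0.15), MCM2 (0.15) and TAF1D (0.59) did not pass. The dim Siomycin replicate 3 limits the detection of weak transcripts.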
